A study of Mus musculus with 3 samples.

Results

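The receptors for interleukin-1, interleukin-18 and interleukin-33 (IL-1, IL-18 and IL-33), with the genes that restrain them or carry their signal into the cell, were examined in regulatory T cells (Treg cells, the Foxp3-dependent CD4 T cells that hold other immune cells in check). The set was chosen by gene name, with earlier results of these data known. It holds 9 of the 22457 genes in the count tables: Il1rl1, Il18r1, Il18rap, Il1r1, Il1r2, Il1rap, Il1rn, Sigirr and Myd88. The material was primary Treg cells of male adult mouse, aged 4 months, with no number of animals, strain, treatment, tissue or sort gate given in the sources used here. Poly(A) RNA sequencing gave 3 libraries, labelled technical replicates 1, 2 and 3 of biological replicate 1, so the files hold no comparison of conditions. Every SD and p below measures the spread between libraries of 1 sample, which may be technical, and none speaks of the spread between animals.

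Receptors of this family pair a chain that binds the cytokine with an accessory chain, and the TIR domains of both chains recruit the adaptor Myd88 inside the cell, which leads through IRAK kinases to NF-kB and the MAP kinases. Outside the cell the pathway is held down by a decoy receptor, a receptor antagonist and an IL-18 binding protein, and at the membrane by the inhibitory receptor Sigirr. Among Treg cells the family is best known for ST2, the IL-33 receptor encoded by Il1rl1, which marks many Treg cells of non-lymphoid tissues.

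Library totals ranged from 2782259 to 3316275 counts. A count of 3, taken as the limit that a count of 0 allows, equals 0.905 to 1.08 CPM (a gene's count over the library total, times 1e+06), and intervals and limits cover counting error only. Levels of different genes are compared only as CPM per coding kilobase, which is CPM divided by the length of the gene's longest coding sequence in kilobases. The labelled cell type was checked on 8 Treg and CD4 T cell genes, of which 7 were detected at 1 CPM or more in each library. Foxp3, the defining factor of the lineage, had 142 ± 6.17 CPM (SD, n = 3), and Cd8a, listed as a gene that should be absent, had 1 count in library 3 and 0 in the others. B cell genes were also present: 12 of 14 were detected, and they summed to 1510 CPM in library 1, 1941 in library 2 and 2009 in library 3.

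On chromosome 1 (GRCm38, the assembly also called mm10), 5 of the 9 genes lie in 1 cluster, all on the plus strand. In order they are Il1r2 at 40074079 to 40125231, Il1r1 at 40225080 to 40317257, Il1rl1 at 40429570 to 40465415, Il18r1 at 40465552 to 40500854 and Il18rap at 40515362 to 40551705. Il1rl2, the receptor for the IL-36 cytokines and not among the 9, lies between Il1r1 and Il1rl1. Only 136 bases separate the end of Il1rl1 from the start of Il18r1, while 99.8 kb separate Il1r2 from Il1r1. The other members lie elsewhere: Il1rn on chromosome 2 (24336853 to 24351494, plus strand), Sigirr on chromosome 7 (141091175 to 141100572, minus strand), Myd88 on chromosome 9 (119335934 to 119341411, minus strand) and Il1rap on chromosome 16 (26581704 to 26730117, plus strand).

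The sequences just upstream of 2 cluster genes are shown because these genes, Il1r1 and Il1rl1, lie in the same cluster and differed widely in level. Promoter windows came from RefSeq (GRCm38.p6), where 8 of the 9 members, all but Sigirr, were matched. Each run below is the 250 bases before a start site on the plus strand, and capitals mark matches to the GATA motif AGATAA on either strand. Il1rl1 is known to start from a distal and a proximal promoter, and both of its listed starts, 10059 bases apart, are given. The Il1r1 window and the first Il1rl1 window lie outside annotated genes, and the second Il1rl1 window lies inside Il1rl1, in an intron but for 2 exonic bases.
Il1r1 (chr1:40224830-40225079): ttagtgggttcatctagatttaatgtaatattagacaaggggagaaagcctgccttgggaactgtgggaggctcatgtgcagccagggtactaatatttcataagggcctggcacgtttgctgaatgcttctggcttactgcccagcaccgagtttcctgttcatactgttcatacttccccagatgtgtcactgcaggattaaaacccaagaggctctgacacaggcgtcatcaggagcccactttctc
Il1rl1, first start (chr1:40429320-40429569): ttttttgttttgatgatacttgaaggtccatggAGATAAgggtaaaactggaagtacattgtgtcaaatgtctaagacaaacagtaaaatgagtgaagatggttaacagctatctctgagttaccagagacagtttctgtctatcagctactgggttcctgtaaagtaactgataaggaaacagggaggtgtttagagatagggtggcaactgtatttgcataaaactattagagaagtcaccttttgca
Il1rl1, second start (chr1:40439379-40439628): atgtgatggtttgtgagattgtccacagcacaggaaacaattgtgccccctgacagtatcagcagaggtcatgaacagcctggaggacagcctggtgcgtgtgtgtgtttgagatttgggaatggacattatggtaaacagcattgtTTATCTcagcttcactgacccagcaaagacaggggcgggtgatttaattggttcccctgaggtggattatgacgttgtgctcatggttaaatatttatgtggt

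In both Il1rl1 windows 1 GATA match was found: AGATAA beginning at base -217 from the first start, and its reverse complement TTATCT beginning at base -103 from the second. No GATA match was found in the Il1r1 window, the only one searched for that gene, at its most upstream listed start. Of 32851 upstream windows of the same length, 9.99% held a GATA match. Only the exact letters AGATAA were searched on both strands, so other runs with gata, such as tgataa in the first Il1rl1 window, were not counted. The windows of both genes were also searched on both strands for the kappaB motif (in 45.8% of all windows), the AP-1 motif TGANTCA (6.75%), the STAT motif TTCNNNGAA (7.02%) and the TATA motif TATAAA (12.4%), and none of these was found in any of the 3 windows. The motifs were chosen after the levels were seen, and a match is a run of letters, not a shown binding site. The upstream window of Il18r1 overlaps the last 114 bases of Il1rl1.

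All 9 genes were detected at 1 CPM or more in every library, against 10611 of all 22457 genes (47.3%). They covered a wide range of levels. Per coding kilobase the order from the highest was Il1r2, Sigirr, Il18r1, Myd88, Il18rap, Il1rl1, Il1rap, Il1rn and Il1r1, with Il1r2 at 329 ± 52.7 and Il1r1 at 1.57 ± 1.23 CPM per coding kilobase (SD, n = 3). The median over the 9 was 73.6 CPM per coding kilobase, beside 31.6 over the 10434 detected genes with a coding length, and 6 of the 9 lay above that value. In 7 of the 8 neighbouring pairs of this order, the lowest library of the higher gene lay above the highest library of the lower one. The exception was Sigirr and Il18r1, whose ranges overlapped: the lowest library of Sigirr had 202.5 and the highest of Il18r1 204.6 CPM per coding kilobase.

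**Figure D1:**
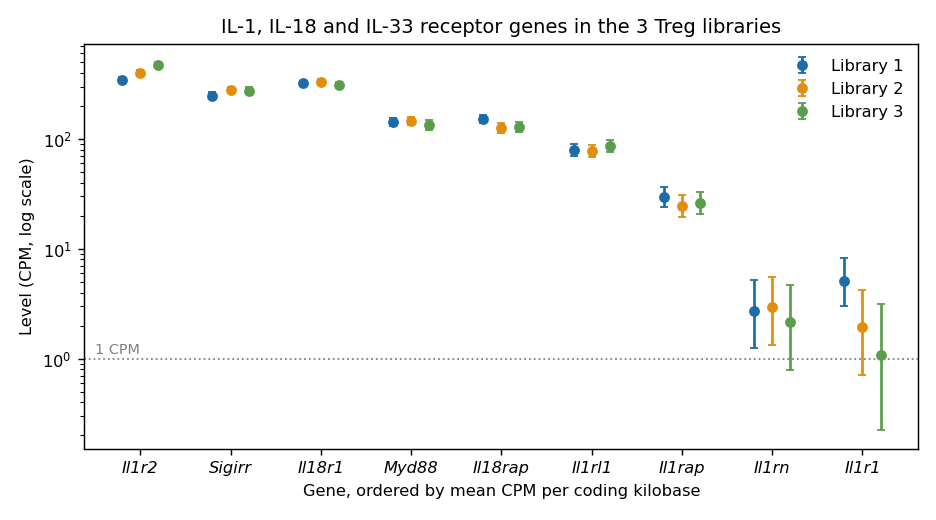
Level of each of the 9 genes in the 3 libraries, in CPM on a log axis, with the genes ordered by mean CPM per coding kilobase and bars giving exact 95% Poisson intervals of each count. From Il1r2 to Il1rap the 3 libraries of a gene sit close together between 24.7 and 472 CPM, while Il1rn and Il1r1 lie between 1.08 and 5.13 CPM with wide intervals.

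The IL-1 arm was the most uneven. IL-1 signals through Il1r1, whereas Il1r2 binds IL-1 but has no TIR domain and works as a decoy. In libraries 1, 2 and 3, Il1r2 had 1135, 1229 and 1312 counts, which are 342, 399 and 472 CPM. Library 3 was highest and library 1 lowest, in raw counts as well as in CPM, and the exact Poisson intervals of the 3 libraries did not overlap. The mean was 404 ± 64.8 CPM (SD, n = 3), and per coding kilobase Il1r2 lay above 95.5% of the 10434 detected coding genes.

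Il1r1, the signalling receptor, had 17, 6 and 3 counts in libraries 1, 2 and 3, or 5.13, 1.95 and 1.08 CPM. Library 1 was highest, and the 3 counts of library 3 equal the limit that a count of 0 allows, so its presence there is at the edge of what this depth can show. Per coding kilobase it lay above only 3.46% of the detected coding genes. Il1rn, the antagonist that occupies Il1r1 without signalling, had 9, 9 and 6 counts, or 2.71, 2.92 and 2.16 CPM. These 3 libraries overlapped in their intervals. Per coding kilobase Il1rn stood at 4.86 ± 0.742, above 13.2% of the detected coding genes.

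The ratio of Il1r2 to Il1r1 per coding kilobase was 93.8 in library 1 (exact Clopper-Pearson 95% interval 58.3 to 162), 288 in library 2 (132 to 786) and 614 in library 3 (209.8 to 2983). Decoy transcripts thus exceeded those of the signalling receptor in all 3 libraries. The size of the ratio is poorly fixed, since it rests on 26 summed counts of Il1r1. With the counts of the 3 libraries summed, it was 199 (135 to 304).

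The IL-33 arm was present throughout. Il1rl1 (ST2) had 265, 239 and 239 counts in libraries 1, 2 and 3, or 79.9, 77.6 and 85.9 CPM. No library stood apart, and the mean was 81.1 ± 4.28 CPM (SD, n = 3), or 47.7 ± 2.51 per coding kilobase, above 60.1% of the detected coding genes. Il1rl1 encodes a membrane form and a shorter soluble form that lacks the TIR domain, and the annotation lists 5 coding transcripts of 195 to 1701 coding bases, which counts per gene pool. The split between the forms was not analysed here.

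Il1rap, the accessory chain that both ST2 and Il1r1 need to signal, had 99, 76 and 73 counts, or 29.9, 24.7 and 26.2 CPM, and the intervals of the 3 libraries overlapped. Per coding kilobase it had 13.1 ± 1.29, above 29.0% of the detected coding genes. Il1rl1 exceeded Il1rap per coding kilobase in all 3 libraries, by ratios of 3.23 (2.56 to 4.12), 3.80 (2.92 to 4.99) and 3.96 (3.03 to 5.21). Il1r1 lay below Il1rap, at ratios of 0.204, 0.0939 and 0.0489. The antisense gene Gm20319 overlaps exons of Il1rap and was not analysed here, and the use of strand is not given, so its reads cannot be told apart from those of Il1rap.

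Both chains of the IL-18 receptor were well covered. Il18r1, the chain that binds IL-18, had 1063, 1015 and 859 counts in libraries 1, 2 and 3, or 321, 329.7 and 309 CPM. It was the steadiest of the 9 genes, with a coefficient of variation of 3.28% over the libraries and overlapping intervals. Il18rap, the accessory chain, had 503, 388 and 359 counts, or 152, 126 and 129 CPM, and here library 1 stood highest. Its interval in library 1 (139 to 166 CPM) met that of library 2 only at 139 CPM. Per coding kilobase Il18r1 had 198 ± 6.51 and Il18rap 73.6 ± 7.61 (SD, n = 3).

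The binding chain exceeded the accessory chain in this receptor too. Il18r1 to Il18rap per coding kilobase was 2.42 (2.17 to 2.69) in library 1, 2.99 (2.66 to 3.37) in library 2 and 2.74 (2.42 to 3.10) in library 3. Set against the IL-33 receptor, Il1rl1 reached 0.236, 0.223 and 0.264 of the level of its direct neighbour Il18r1 on the same scale. The coding sequence of neither gene shares any run of 31 bases with another gene.

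Along the chromosome 1 cluster, which spans 477.6 kb, levels did not change evenly with position. In order, the mean levels were 329 for Il1r2, 1.57 for Il1r1, 1.42 for Il1rl2, 47.7 for Il1rl1, 198 for Il18r1 and 73.6 for Il18rap, all in CPM per coding kilobase. The 2 low genes thus stand next to each other between Il1r2 on one side and Il1rl1 on the other. Of the 3 nearest genes before the cluster, Rfx8 and Gm3646 had 0 counts and the kinase gene Map4k4 had 146, 128 and 185 counts, or 13.1 CPM per coding kilobase. Of the 3 nearest genes after it, the sodium-proton exchangers Slc9a4 and Slc9a2 had 0 counts and 1 count in all, and Mfsd9 had 4, 5 and 5 counts.

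**Figure D2:**
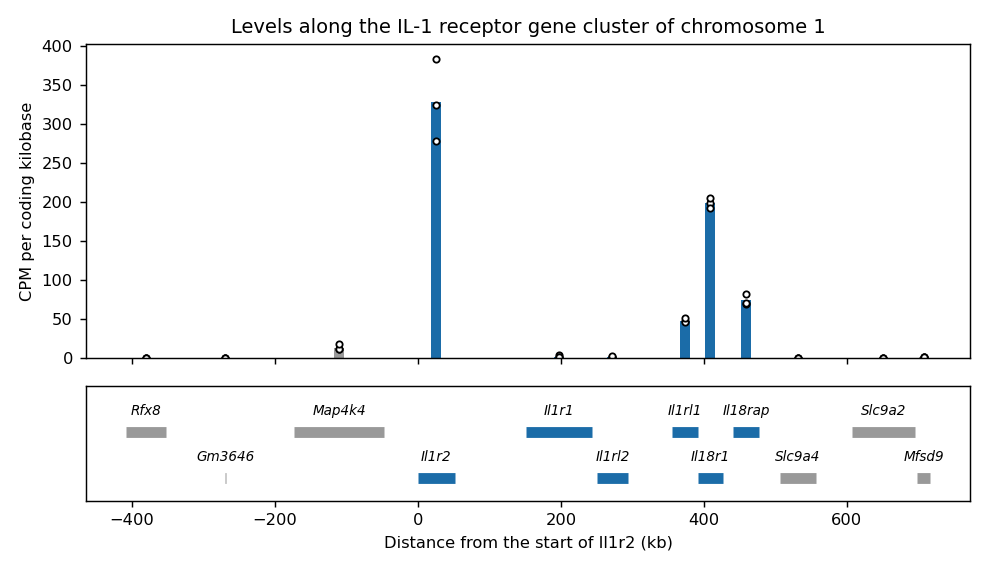
Mean level in CPM per coding kilobase (bars; open points are the 3 libraries) of the 6 receptor genes of the chromosome 1 cluster in blue and the 3 nearest genes on each side in grey, over their positions in kb from the start of Il1r2. Il1r2 stands tallest at 329, Il1r1 and Il1rl2 are near 0, and Il1rl1, Il18r1 and Il18rap rise to 47.7, 198 and 73.6.

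Sigirr, the inhibitory receptor that dampens IL-1, IL-33 and Toll-like receptor signalling, had 824, 862 and 766 counts in libraries 1, 2 and 3, or 248, 280.0 and 275 CPM. Library 1 was lowest by a small margin, and its interval overlapped those of the others. At 218 ± 13.9 CPM per coding kilobase (SD, n = 3), Sigirr exceeded Il1rl1 by a mean ratio of 4.58 ± 0.366, and the ratio's intervals lay between 3.75 and 5.79 in all 3 libraries. Myd88, the adaptor that all the signalling receptors here share with most Toll-like receptors, had 474, 449 and 371 counts, or 143, 146 and 133 CPM. Its 3 libraries overlapped, and per coding kilobase it had 158 ± 7.36, above 86.3% of the detected coding genes. Exons of Myd88 overlap those of Acaa1a on the opposite strand and 22.6% of its coding 31-mers occur in other genes, so part of its counts could belong elsewhere.

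Between libraries, a chi-square test against the library totals, which allows for counting noise only, called 2277 of 10043 genes with 30 or more summed counts (22.7%) at an adjusted p under 0.05. It called 2 of the 7 members tested, Il1r2 and Il18rap. Il1r2 passed with an adjusted p of 3.19e-12 by the chi-square test, and its highest library was 1.38-fold above its lowest. It also passed without library 1, 2 or 3, with adjusted p = 0.000797, 7.16e-13 and 0.00521. Il18rap passed narrowly (chi-square test, adjusted p = 0.0455) with library 1 1.20-fold above library 2, and did not pass without library 1, 2 or 3 (adjusted p = 0.871, 0.0948 and 0.0592). Il18r1, Il1rl1, Il1rap, Sigirr and Myd88 did not pass, with adjusted p from 0.106 to 0.667, and the largest excess of a highest over a lowest library among them was 1.21-fold, in Il1rap. With library 1, 2 or 3 left out, the chi-square test called 1247 of 9548, 1466 of 9580 and 904 of 9586 genes. Il1r1 and Il1rn were below 30 summed counts and not tested. With a minimum of 10 summed counts, Il1r1 passed as well (adjusted p = 0.0363, chi-square test).

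The quasi-likelihood test of edgeR, which allows for the spread between libraries beyond counting noise, called 136 of 10411 genes in any library against the other 2 (1.31%), and 0 of the 8 members it tested. At an unadjusted p under 0.05 it had 1 member, Il1r2, in library 1 and again in library 3. Il1r2 was 0.33 higher on the log2 scale in library 3 than in the others (edgeR adjusted p = 0.164), and its value in library 1 was -0.33 (edgeR adjusted p = 0.893). DESeq2 called no member either, but it called almost no gene of any kind, so this gives no information on the members. Each of these edgeR fits sets 1 library against 2 with 1 residual degree of freedom, moderated across genes, and assumes that the lone library varies like the others, so a gene it does not call is not shown to be alike in the libraries.

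Several measures moved with these differences, and their part in them was not tested. Il1r2 was also the densest member, with 0.996 counts per coding base averaged over the libraries, and of the 905 genes tested at 0.5 to 1 counts per coding base, 54.9% were highest in library 3. That share was 83.1% of the 474 genes at 1 or more and 33.9% of the 6519 genes under 0.2. The median ratio of library 3 to library 1 in CPM was 1.06 at 0.5 to 1 and 1.13 at 1 or more counts per coding base, below the 1.38 of Il1r2. How duplicate reads were handled is not given in the sources used here. B cell markers, like Il1r2, were lowest in library 1 and highest in library 3, but without their most abundant gene, Ighm, they summed to 615, 981 and 965 CPM, with library 2 highest. Neutrophil genes, a cell type also known for Il1r2, summed to 32.6, 39.3 and 21.2 CPM in libraries 1, 2 and 3, with 2 of 12 detected, and Camp at 0 counts. That sum was lowest in library 3 through Mmp9, and without Mmp9 the neutrophil genes summed to 4.82, 8.77 and 5.75 CPM, lowest in library 1 as Il1r2 was. S100a8 had 0, 8 and 2 counts, S100a9 0, 3 and 1, and Ly6g 0, 2 and 3. Others went the other way: Ngp had 3, 0 and 0 counts, Mmp8 2, 0 and 0, and Ltf 11, 9 and 9. Of the neutrophil genes with any count, 3 were highest in CPM in library 1, 6 in library 2 and 2 in library 3. Monocyte and macrophage genes summed to 24.7, 96.5 and 44.2 CPM, with 4 of 14 detected and Clec7a among those at 0, and dendritic cell genes to 79.3, 122 and 86.6 CPM, with 2 of 10 detected and Clec9a at 0. In both lists library 2 was highest.

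**Figure D3:**
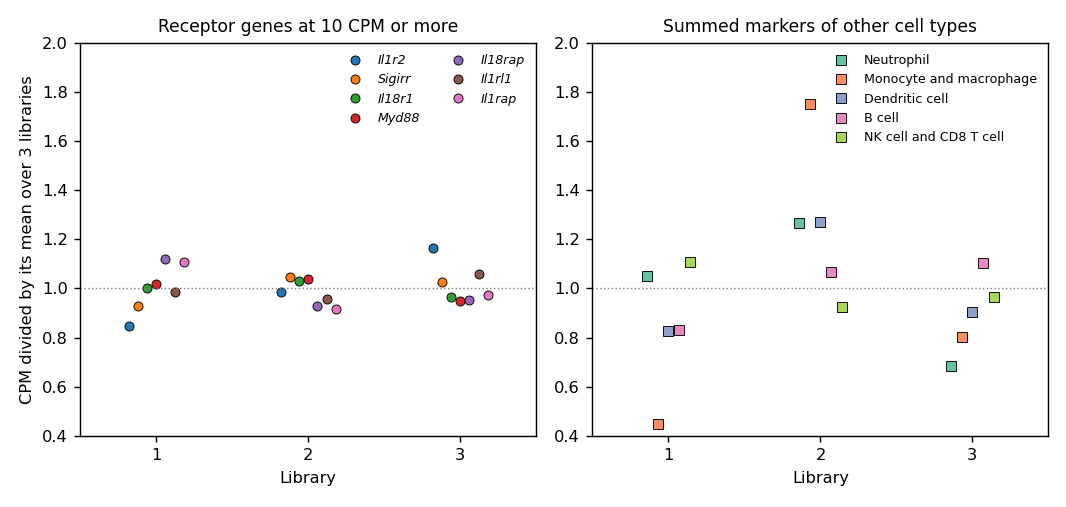
CPM in each library divided by the mean of the 3 libraries, for the 7 receptor genes at 10 CPM or more on the left and for the summed markers of 5 other cell types on the right. Il1r2 is lowest in library 1 and highest in library 3, and Il18rap and Il1rap are highest in library 1, while monocyte and macrophage markers spread most, from 24.7 CPM in library 1 to 96.5 CPM in library 2.

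Other cells that carry these receptors were checked in the same way, and fewer cells of a type cannot be told apart from less RNA per cell in bulk RNA. Mast cells and basophils and group 2 innate lymphoid cells (ILC2) bear ST2. Of 13 mast cell and basophil genes 2 were detected, Kit at 10.1 and Hdc at 1.62 CPM, and 9 were at 0 counts in every library, among them Mcpt4, Cma1 and Tpsb2. Their sum was 10.3, 14.6 and 11.9 CPM. Of 7 ILC2 genes 2 were detected, Il17rb and Arg1, with Hes1 at 0 and sums of 14.5, 7.79 and 28.4 CPM. Il17rb, a chain of the IL-25 receptor, had 36, 15 and 61 counts and passed in library 3 against the other 2 (edgeR adjusted p = 0.0455), the library in which Il1rl1 was also highest by a margin inside its counting error.

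NK and CD8 T cells carry the IL-18 receptor. Of 10 such genes 3 were detected (Gzma, Prf1 and Cd8b1), and Klra4 and Klrc2 had 0 counts. The sums of 121, 101 and 106 CPM were highest in library 1, as Il18rap was. Gzma (54.0, 40.9 and 44.9 CPM) and Prf1 (42.8, 35.1 and 25.9 CPM) were highest there too. Cd8b1 was highest in library 3, at 21.4, 20.1 and 32.0 CPM. Of the genes with any count, 3 were highest in library 1, 3 in library 2 and 2 in library 3. Fibroblasts, endothelial cells and some gamma delta T cells carry Il1r1. Fibroblast, endothelial and epithelial genes had 3 of 14 detected, sums of 41.6, 50.3 and 42.4 CPM and 0 counts of Pdgfra, Pdgfrb, Tie1 and Krt8. Epcam made up most of these sums, which were 12.1, 13.6 and 16.5 CPM without it. Gamma delta T cell genes had 2 of 4 detected, sums of 5.13, 9.74 and 10.1 CPM and 0 counts of Sox13. Trdc, Trgc1 and Trgc2 of that list were not measured, and its sums were largely Blk (3.02, 6.50 and 6.11 CPM). Neither sum was highest in library 1, where Il1r1 was, but so few informative genes say little about these cells. The part of any of these cells in the receptor levels was not tested.

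The ligands of these receptors were scarce in the same RNA. Of 8 IL-1 family ligand genes measured, 2 were detected, and 5 had 0 counts in all libraries, among them Il33. Il18 was highest per coding kilobase, at 18.9 ± 3.67 (SD, n = 3) from 31, 41 and 28 counts, followed by Il1a at 1.77 ± 0.392 from 4, 4 and 5 counts. Il1b had 0, 2 and 1 counts, below the limit that a count of 0 allows. Of 5 other genes of this pathway measured, Il18bp and Il1rl2 were detected. Il18bp, the soluble IL-18 binding protein, had 19, 29 and 8 counts and passed the chi-square test between libraries (adjusted p = 0.0298), with library 2 highest. Il1rapl1 and Il1rapl2, neuronal relatives of the accessory chain, had 0 counts.

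The machinery that turns pro-IL-1 and pro-IL-18 into active cytokines was better covered than the cytokines. Of its 11 genes 10 were detected, and the highest in CPM per coding kilobase were the adaptor Pycard (590.3 ± 30.9; SD over 3 libraries, as for the genes that follow), the protease Casp1 (282 ± 5.39) and Casp4 (204 ± 23.6). Of the coding 31-mers of Pycard, 43.9% occur in other genes. Nlrp3, the sensor best known for IL-1 release, had 1 count, in library 3. Of 9 genes tested in this list, 1 differed between libraries by the chi-square test (Casp4), beside 22.7% of all genes tested.

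Downstream of the receptors, nearly the whole signalling chain was detected. Of 16 TIR adaptors and proximal kinases 14 were detected, with the E3 ligase Peli1 (90.5 ± 4.04), the kinase Irak4 (74.8 ± 5.09) and the inhibitory adaptor Tollip (47.2 ± 5.50) highest in CPM per coding kilobase and the kinase Irak2 at 33.4 ± 1.47, and 1 of 11 tested differed between libraries by the chi-square test. All 20 genes of the TAK1, IKK and NF-kB arm were detected. Its highest in CPM per coding kilobase were the inhibitor Nfkbia (642 ± 61.8), the NF-kB subunit Rela (182 ± 10.2) and the deubiquitinase Cyld (157 ± 13.0), and 5 of 20 differed by the chi-square test. All 13 MAP kinase genes were detected too, led in CPM per coding kilobase by Map2k3 (216 ± 10.4), Mapk9 (50.9 ± 2.93) and Map3k8 (48.7 ± 4.92), and 2 of 13 differed by the chi-square test. Over all genes tested, the chi-square test called 22.7%. All coding 31-mers of Ticam2 and Ube2n (100%) occur in other genes, as do 92.7% of those of Map2k7 and 80.2% of those of Ube2v1. That share was 57.6% for Tirap, 28.8% for Map3k7 and 21.6% for Irak2. The detection and levels of these genes, which enter the medians below, are therefore uncertain. Jun, an AP-1 subunit, had 77, 68 and 118 counts and passed in library 3 against the other 2 (edgeR adjusted p = 0.0401). The median levels were 21.7 CPM per coding kilobase for the adaptors and kinases, 65.3 for the NF-kB arm and 21.8 for the MAP kinases, beside the 31.6 of all detected coding genes and the 73.6 of the 9 receptor-set genes.

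Most Toll-like receptors use Myd88 as well, and 5 of their 11 genes were detected. With the transport protein Unc93b1 and the related receptor Cd180, both detected, 7 of the 13 genes of this list were detected. In CPM per coding kilobase Tlr1 had 76.96 ± 7.73, Unc93b1 38.9 ± 8.72 and Tlr6 9.73 ± 2.46, and Tlr8 had 0 counts. Tlr1 and Tlr6 are near copies, and 25.6% of the coding 31-mers of Tlr1 and 25.3% of those of Tlr6 occur in another gene, so their counts are uncertain. By the chi-square test 3 of 6 tested genes of this list differed between libraries, beside 22.7% of all genes tested.

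**Figure D4:**
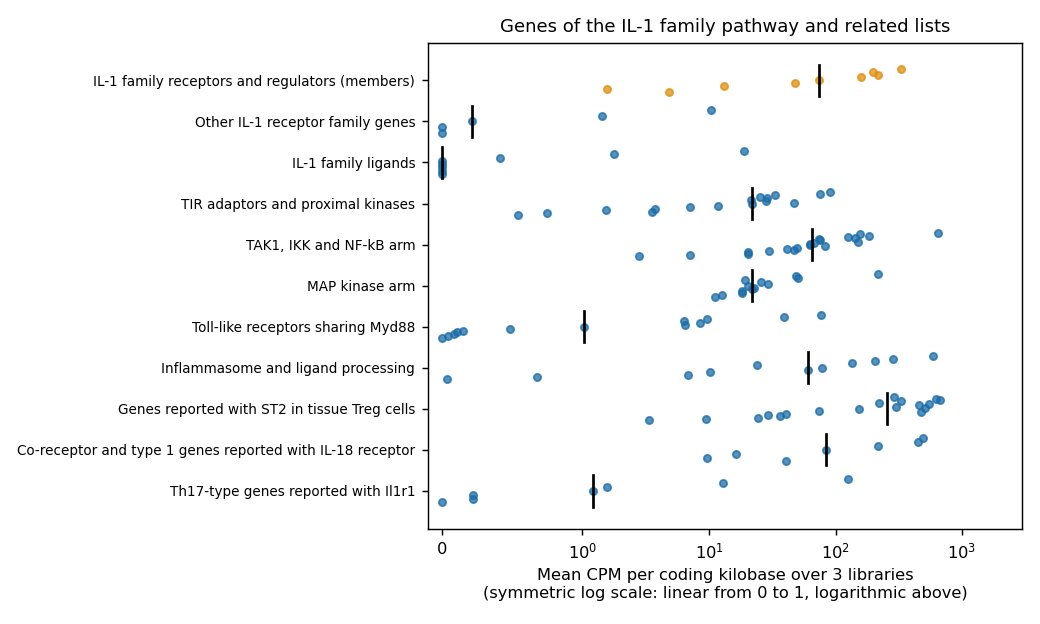
Mean level over the 3 libraries, in CPM per coding kilobase on an axis that is linear from 0 to 1 and logarithmic above, of each gene of the 9-gene receptor set (orange) and of 10 related lists (blue), with a bar at each list's median. The receptor set has a median of 73.6, 6 of the 8 ligands lie below 1, and the NF-kB arm has a median of 65.3.

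Genes known from the same Treg or T cell states as each receptor were then set beside it. All 18 genes listed for ST2-bearing tissue Treg cells were detected, with a median of 256 CPM per coding kilobase. In CPM per coding kilobase the inhibitory receptor Tigit (664 ± 49.1), Tnfrsf18 (GITR, 624 ± 53.1) and the costimulatory receptor Icos (551 ± 32.9) were highest, the integrin Itgae had 289 ± 15.5, and Pparg was lowest at 3.38 ± 1.41. Of the 18, 10 differed between libraries by the chi-square test, beside 22.7% of all genes tested. Among tested genes with a coding length, that share was 18.9% under 0.2 and 40.9% at 1 or more counts per coding base. Prdm1 (Blimp-1), a factor of effector Treg cells, had 747, 628 and 390 counts and passed in library 3 against the other 2 by edgeR (adjusted p = 0.0054), while Il1rl1 did not pass in that library.

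All 7 genes that go with the IL-18 receptor in type 1 responses were detected as well, with a median of 83.9 CPM per coding kilobase. The highest in CPM per coding kilobase were the interferon-gamma receptor chain Ifngr1 (493 ± 22.0), the chemokine receptor Cxcr3 (449 ± 27.7) and Stat4 (217 ± 5.11), although 41.4% of the coding 31-mers of Stat4 occur in other genes. By the chi-square test 3 of the 7 differed, beside 22.7% of all genes tested. Of the 7 Th17-type genes, a list that includes Il1r1 itself, 4 were detected, with Ccr6 at 126 ± 23.6 and Il1r1 at 1.57 ± 1.23 CPM per coding kilobase and Il17a at 0 counts. Ccr6 differed between libraries by the chi-square test and was highest in library 3.

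The genes whose pattern was most like that of each member were found by the smallest Euclidean distance of log2(CPM per coding kilobase + 1) over the 3 libraries, among 9879 genes. For Il1rl1 these were Slc31a1 (distance 0.0449) and Zfp1 (0.0474), for Il18r1 Smim14 (0.0597), and for Il18rap Utrn (0.0145) and Tmem43 (0.0615). For Il1r2 the nearest, Gtf2h5 (0.146) and Swi5 (0.147), lay farther off than those of any other member. Il1rap was nearest to Vps13c (0.0293) and Nbas (0.0471), Sigirr to H2-DMa (0.0415) and Csk (0.0452), and Myd88 to Brcc3 (0.0709) and Mapre2 (0.0713). With 3 libraries of 1 sample this measure mostly matches genes of equal level.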

How the data were processed

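The authors deposited unscaled read counts for every gene, in a separate table for each of the 3 libraries. Per the notes deposited beside them, alignment was to mm10 and genes were those of GENCODE M4. The sources used here do not name an aligner or counter and do not say how strand, duplicates or multiply matching reads were treated. Symbols, positions and coding lengths came from GENCODE M21 on GRCm38, the same assembly: 22195 of 22457 identifiers had a symbol, 262 did not, and 21332 had a coding length. Promoter windows came from RefSeq (GRCm38.p6).

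CPM was computed on library totals (3316275, 3079004 and 2782259), and exact 95% intervals on the counts. The libraries held unlike counts in 13451 to 14036 genes per pair (Pearson r of log2 CPM 0.979 to 0.981 across genes, which are not replicates), and were kept apart. Counts were compared between libraries by a chi-square test with 2 degrees of freedom over genes with 30 or more summed counts, and by edgeR 4.0.16 (TMM, filterByExpr, glmQLFit and glmQLFTest, each library against the other 2), with Benjamini-Hochberg adjustment over all genes tested at a threshold of 0.05. Both tests were first run on simulated data with known changes. DESeq2 1.42.0, other scalings, minimum counts, lengths and leaving out each library were the alternatives. Coding sequences were searched for 31-mers shared with other genes.

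The 9 genes and all lists were chosen with earlier results of these data known, and the measure of counts per coding base and the marker sums without their most abundant gene were added after seeing the data. Besides the 9 genes, the text names the highest 3 of each list by CPM (their levels are given per coding kilobase), up to 3 examples at 0 counts, genes called by edgeR, the cluster genes with 3 neighbours on each side, and the 2 nearest genes by pattern for members at 10 CPM or more; Cd8a, Foxp3, the marker genes, Il1b, Nlrp3, Pparg, Tollip, Icos, Cd180 and other list members were named after their values were seen. A few genes that these rules name are not reported here.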

Additional observations from a re-analysis of the deposited data

How the results depend on the processing

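Technical libraries of 1 sample give no spread between animals, and counts of Il1r1 and Il1rn are too few to place them closely. The order of the 9 genes did not change with union exon length, TMM or without any 1 library. By union exon length, however, Il1rn and Il1r1 came close, at 0.469 and 0.427 CPM per kilobase. With no length scaling Il1r1, at 2.72 CPM, stood above Il1rn, at 2.60 CPM. Without any 1 library, 1 member (Il1r2) passed the chi-square test in place of 2, a range of 1 to 1. Fewer of all genes passed too: 1247 of 9548, 1466 of 9580 and 904 of 9586, beside 2277 of 10043 with all libraries. Scaled by union exon length instead of coding length, the mean ratios over the libraries were 3.33 for Il18r1 to Il18rap, 4.996 for Il1rl1 to Il1rap and 7.49 for Sigirr to Il1rl1. They were 0.178 for Il1rl1 to Il18r1 and 788 for Il1r2 to Il1r1, where the same mean by coding length was 332. With no length scaling, Il18r1 to Il18rap was 2.37, Il1rl1 to Il1rap 3.03 and Sigirr to Il1rl1 3.31. At 2 CPM 8 members were detected, Il1r1 being lost. Among the 36 alternative means in CPM, the largest shift was 44.3% for Il1r1 and 8.49% for the others. The edgeR test could not be run without a library, since 1 against 1 leaves no residual degrees of freedom, and no paired analysis was possible because the libraries form 1 group.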
